A study of Danio rerio with 47 samples.

Results

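The development of the trunk in germ cell depleted zebrafish was described by comparing dnd morphants at 22 and at 14 days post fertilization (dpf). The comparison used every array at hand whose title gives the age and the letter for a low germ cell number: 10 morphant arrays at 22 dpf and 9 at 14 dpf, 19 of the 47 arrays of the series. The morphants came from embryos injected at the 1-cell stage with a dnd morpholino, an antisense oligonucleotide that blocks translation, and were sorted at 24 hours post fertilization for a count of 1 to 9 primordial germ cells and reared at 28 °C. The remaining 28 arrays are of wild-type fish at the same ages, 14 at each, and serve as the reference. They are labelled as having a high germ cell number, and the labels name no control injection for them. Arrays are labelled as biological replicates, but it is not stated whether 1 trunk or a pool went onto each, so p-values measure the spread between these arrays.

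The dnd1 gene encodes an RNA-binding protein without which primordial germ cells are lost during embryogenesis. Zebrafish that lose their germ cells early develop as sterile males, and in fish with a full set of germ cells the juvenile gonad first contains immature oocytes whatever the later sex. The same weeks cover much of the change from larva to juvenile, when the adult blood, skeleton, scales and pigment pattern form. The comparison addresses how the trunk changes over this interval when few germ cells were present at the outset.

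RNA of the trunks was amplified and measured on NimbleGen arrays of 1 colour, and the deposited values are log2 intensities of 31475 rows. The labelled tissue was checked by a set of trunk markers, of which muscle was high. Not all of the set were: the adult beta globin gene hbba1 lay between 4.32 and 5.58 on the morphant arrays at 14 dpf. The row of mylpfa, a myosin light chain of fast trunk muscle, lay between 14.94 and 15.46 on all morphant arrays at 14 dpf and between 15.09 and 15.42 at 22 dpf, near the top of the scale, while 25 genes of eye, lens and pituitary averaged 5.42 to 6.06 and 5.53 to 5.91. Arrays of the same age shared exact values below 3.7 on 10 occasions in 253 pairs at 14 dpf and on 53 in 276 pairs at 22 dpf, but arrays of different age on 2 in 552 pairs, the pattern of values normalized separately by age. Age and normalization run cannot be told apart within a genotype, and any age difference below can hold an offset between the runs. In addition, 3 pairs of morphant arrays were so similar that they may carry the same fish or RNA, which would make the p-values too small: the arrays numbered 5 and 13 at 14 dpf, and 1 and 2 as well as 3 and 4 at 22 dpf. Wild-type arrays at 22 dpf held such pairs too, the arrays 5 and 6, 7 and 8, and 9 and 10. The morphant arrays 5 and 13 were also low in epidermal genes, and the morphant arrays 1 and 2 were high in germ cell genes. Some single arrays stood apart too: 26 liver genes averaged 12.21 on array 14 at 22 dpf and 6.80 to 7.24 on the other 9. All arrays were normalized together before testing, a row was called when it differed by at least 1 log2 unit (2-fold) at an adjusted p below 0.05, and differences are 22 minus 14 dpf in log2 units with the standard error (SE).

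In morphants 4021 rows were called, 12.8% of all, of which 2107 rose from 14 to 22 dpf (6.69%) and 1914 fell (6.08%). Differences of at least 2 units were seen for 415 rising and 260 falling rows. With arrays centred on their median instead of quantile-normalized, 1814 rose and 2499 fell, because that scaling puts the median of all rows at -0.15 instead of -0.03. In the deposited values without joint normalization 2347 rose and 1778 fell, so the balance of the directions depends on the scaling. In 745 rows every array at 22 dpf lay above every array at 14 dpf (2.37% of rows), and in 627 every array lay below (1.99%), together 4.36%. With near-duplicate pairs averaged 3664 rows were called. The counts for gene lists below are read against the shares 6.69% and 6.08%. These shares are over all rows, while list members are named genes. Of 21025 named genes 1080 rose and 1578 fell, with a median of -0.07, so falls outnumbered rises among them. Leaving out 1 morphant array moved a count of rises or falls by over 1.5 times in the epidermis and exocrine pancreas lists and in lists with at most 2 calls in that direction.

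Among genes with a name the largest rise belonged to fabp1b.2, a fatty acid binding protein of the family found in gut and liver. It lay between 4.73 and 7.96 (median 5.84) at 14 dpf and between 13.25 and 15.13 (median 13.82) at 22 dpf. The groups were far apart and did not overlap, with a difference of 8.16 ± 0.49 (SE, adjusted p = 1.16e-17, 285-fold). The wild-type arrays rose by 6.02 ± 0.41 (adjusted p = 1.85e-16). Another lipid and retinoid carrier of the absorbing gut, rbp2a, ranged from 4.81 to 7.85 (median 5.62) at 14 dpf and from 7.90 to 13.35 (median 11.66) at 22 dpf. These groups lie close but do not overlap, and the rise was 5.43 ± 0.73 (adjusted p = 1.02e-07). It was the only called member of 30 intestinal genes, of which none fell (1 fell without array 16 at 22 dpf). The gut hormone gene pyya went the other way, from 8.93 to 12.01 (median 11.68) down to 5.87 to 9.43 (median 8.33), with 8 of 10 later arrays below every earlier one, and fell by 3.04 ± 0.48 (adjusted p = 3.51e-06). In bulk tissue, fewer cells of a type and less RNA per cell cannot be told apart.

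Of 3 measured adult globin genes 1 rose in morphants, hbba1, and 0 fell. The row of hbba1, an adult beta globin, stayed between 4.32 and 5.58 (median 4.94) on all 9 arrays at 14 dpf. At 22 dpf it ranged from 4.66 to 13.23 (median 12.66). The later arrays formed a high set of 7, between 11.31 and 13.23, and a low set of 3, the arrays 15, 17 and 18, at 5.95, 4.66 and 7.53. The mean difference of 5.74 ± 0.85 (adjusted p = 9.52e-07, 53.4-fold) is thus not a shift shared by all arrays. Wild-type arrays rose by 5.30 ± 0.70 (adjusted p = 3.95e-08). Of the other adult globin rows hbaa2 differed by 0.65 ± 0.36 (adjusted p = 0.194). Among 9 embryonic and larval globins 1 rose, hbae5, an alpha globin: 6.85 to 13.21 (median 11.57) at 14 dpf became 14.37 to 14.96 (median 14.79) with no overlap, a rise of 3.98 ± 0.50 (adjusted p = 1.96e-08). Without array 1, 4 or 16 at 14 dpf 2 of these globins rose. Globin genes are near copies of each other, so a probe set may read more than the gene it names. Of 18 further red cell genes fech, the last enzyme of heme synthesis, rose by 1.42 ± 0.17 (adjusted p = 1.09e-08) and its groups did not overlap, while rhag, a gas channel of the red cell membrane, fell by 1.27 ± 0.31 (adjusted p = 0.00179) and blvrb also fell.

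**Figure D1:**
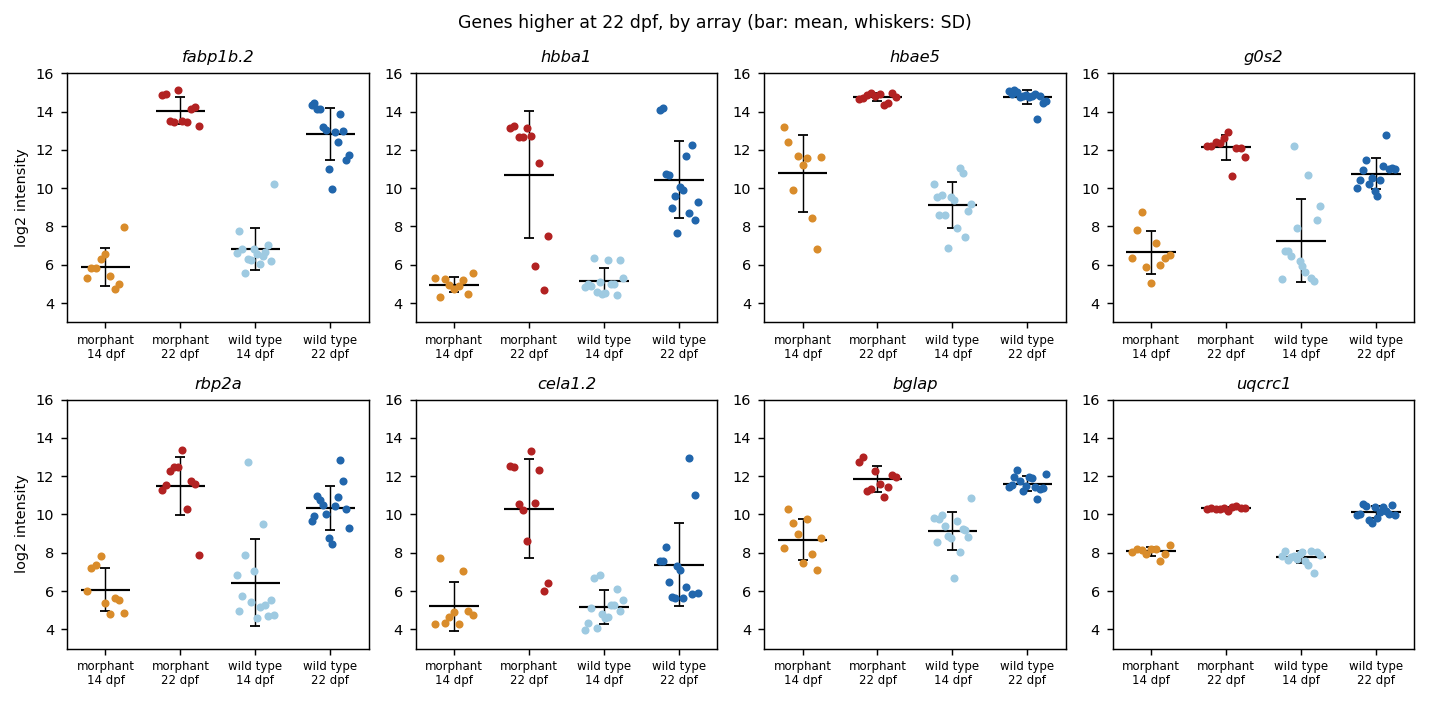
Log2 intensity of 8 genes that rose in morphants, 1 point per array, with the group mean (bar) and SD (whiskers) for morphants and wild type at 14 and 22 dpf. The later morphant arrays of fabp1b.2 all lie above 13, hbba1 splits into 7 high and 3 low arrays at 22 dpf, and uqcrc1 is tight in every group.

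The gene g0s2, an inhibitor of the triglyceride lipase of fat cells and liver, rose by 5.48 ± 0.61 (adjusted p = 1.48e-09, 44.5-fold), from 5.03 to 8.74 (median 6.35) to 10.63 to 12.93 (median 12.22), without overlap. Of 23 genes of fat cells and lipid storage 2 rose and 1 fell in morphants. The risers were cidec, a lipid droplet protein, with 1.80 ± 0.43 (adjusted p = 0.00145), and dgat2, which makes triglyceride, with 1.79 ± 0.39 (adjusted p = 0.000468). Neither was called in wild type, at -0.07 ± 0.36 and -0.02 ± 0.32. The difference of these age effects, a test that called 0.591% of all rows, was not passed (cidec 1.86 ± 0.56, adjusted p = 0.12; dgat2 1.81 ± 0.51, adjusted p = 0.0867). In the same list the age effect of angptl4, an inhibitor of lipoprotein lipase, differed between the genotypes, by 1.40 (adjusted p = 0.0129), with -1.01 in wild type and 0.39 ± 0.23 in morphants. The fatty acid desaturase gene scdb fell by 2.03 ± 0.43 (adjusted p = 0.000271). In cholesterol synthesis 1 of 26 genes rose (ggps1) and 2 fell (cyp51 and msmo1, which act in succession on sterol precursors), with cyp51 falling by 1.59 ± 0.37 (adjusted p = 0.000919). Of 22 genes of growth hormone and insulin-like growth factor signalling none rose and 3 fell: the ligand igf2b by 1.59 ± 0.30 (adjusted p = 6.22e-05), the growth hormone receptor ghrb by 1.70 ± 0.33 (adjusted p = 9.49e-05) and the adaptor irs2a by 1.77 ± 0.56 (adjusted p = 0.0163).

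Digestive enzymes of the exocrine pancreas formed the list with the largest share of rises. Of 24 measured genes 17 rose and none fell, and the list's median difference was 2.09 against -0.03 over all rows. The elastase gene cela1.2 lay between 4.27 and 7.75 (median 4.73) at 14 dpf and between 6.0 and 13.30 (median 10.56) at 22 dpf. On 8 of 10 later arrays it was above every earlier array, and the arrays 17 and 18, at 6.0 and 6.41, lay within the earlier range; the rise was 5.09 ± 0.81 (adjusted p = 3.62e-06). The lipase gene cel.2 was also low on the arrays 17 and 18, at 6.89 and 6.62, and went from 5.37 to 9.79 (median 5.92) to 6.62 to 13.49 (median 11.34), a rise of 4.37 ± 0.79 (adjusted p = 3.2e-05). The chymotrypsin-like protease ctrl rose by 2.61 ± 0.55 (adjusted p = 0.000324), the elastase cela1.3 by 3.90 ± 0.99 (adjusted p = 0.00252) and erp27, a chaperone-related protein of the endoplasmic reticulum, by 4.0 ± 0.84 (adjusted p = 0.000255). The other risers were the trypsins prss1 and prss59.1, ctrb.1, ela2, ela2l, cela1.1, cpa1, cpb1, amy2a, cel.1, sycn.2 and pdia2. Several of these proteases are near copies of each other, so a probe set may read more than 1 of them. The transcription factor genes of the acinar cell did not pass, with ptf1a at 0.37 ± 0.38 and rbpjl at -0.23 ± 0.22.

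Averaged over the list, the arrays 17 and 18 at 22 dpf stood at 7.84 and 7.87, against 9.76 to 12.85 on the other 8, while at 14 dpf the range was 7.03 to 11.09 with array 2 highest. Liver genes were high on array 14 alone, the array that was also highest for the pancreas. Whether the amount of pancreas taken with each trunk differed between arrays was not tested. The count depends on which arrays enter: 6 genes rose with near-duplicate pairs averaged, 10 with the pairs as a random block, 13 with arrays centred on their median, 8 without the arrays 5 and 13 at 14 dpf, and 9 without the arrays 1 and 2 at 22 dpf. Without 1 array at a time it ran from 10 to 20, with 10 when array 14 at 22 dpf was left out and 11 each when array 1, 2 or 16 was. In wild type, where 15.4% of all rows were called (8.17% rises, 7.23% falls), 5 of 24 rose and none fell, and in no gene of the list did the age effect differ between the genotypes at an adjusted p below 0.05 (limma, 5 of 24 genes at an unadjusted p under 0.05, all higher in morphants). The gene cela1.3 differed most, by 3.73 ± 1.29 (adjusted p = 0.203). Wild-type arrays at 22 dpf averaged 7.56 to 8.39 over the list, except the arrays 21 and 23 at 12.79 and 11.46. Among 26 liver genes pah fell by 1.02 ± 0.28 (adjusted p = 0.00594), a call lost without any 1 of the arrays 1, 2, 3, 4, 15 and 16 at 14 dpf and 15 and 18 at 22 dpf. Of 27 genes of complement and coagulation f10 rose by 1.05 ± 0.26 (adjusted p = 0.00152), a call lost with pairs averaged and without array 1, 14 or 15 at 14 dpf or 3 or 14 at 22 dpf.

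**Figure D2:**
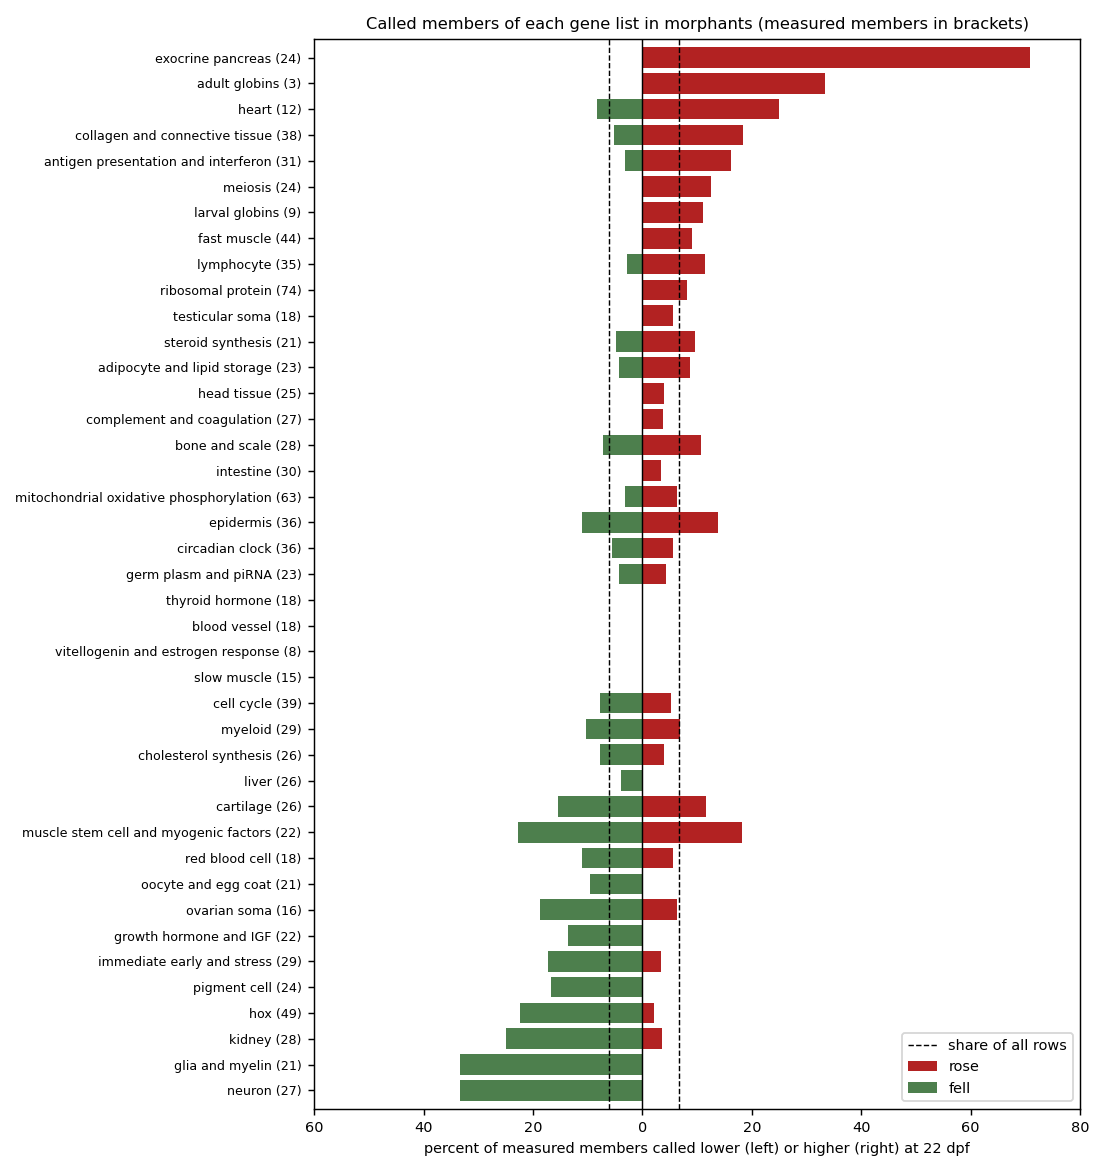
Percent of the measured members of each of 41 gene lists that rose (right) or fell (left) in morphants from 14 to 22 dpf, with the share of all rows as dashed lines at 6.69% and 6.08%. Exocrine pancreas (17 of 24) extends farthest to the right, and neuron (9 of 27) and glia and myelin (7 of 21) extend farthest to the left.

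Skeletal genes changed in both directions. The bone and scale list had 3 rises and 2 falls among 28 genes. Osteocalcin, bglap, a protein that mature osteoblasts lay down in mineralized matrix, lay between 7.08 and 10.31 (median 8.76) at 14 dpf and between 10.90 and 12.97 (median 11.78) at 22 dpf, and rose by 3.17 ± 0.37 (adjusted p = 3.26e-09). Its groups did not overlap, as was true of the related matrix protein mgp, which limits mineralization of cartilage and rose by 2.94 ± 0.35 (adjusted p = 5.94e-09). The secretory calcium-binding phosphoprotein gene scpp7 rose by 3.33 ± 0.63 (adjusted p = 5.68e-05) and the collagenase mmp13b by 2.25 ± 0.31 (adjusted p = 1.86e-07). Not all of these rising genes belong to the list, which counts 3 rises. The 2 falls of the list were sost, an inhibitor of Wnt signalling from bone cells, and fgf20a. In cartilage 3 of 26 genes rose and 4 fell. The matrix proteins matn1 and otos rose by 2.67 ± 0.40 (adjusted p = 1.35e-06) and 2.02 ± 0.38 (adjusted p = 4.94e-05), with hapln1b, whereas the fibril-associated collagen col9a2 and the growth-plate protein ucmab fell by 1.17 ± 0.17 (adjusted p = 5.8e-07) and 1.55 ± 0.31 (adjusted p = 0.000175), with matn3b and matn4.

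The connective tissue list had 7 rises and 2 falls among 38 genes, and 4 rises and 2 falls with near-duplicate pairs averaged (col5a3b, col6a1 and bgna were then not called). Collagen VI, the beaded filament around muscle fibres and in tendon, rose in col6a1, col6a2 and col6a3. The row of col6a2 went from 9.55 to 10.03 (median 9.76) to 10.62 to 11.22 (median 10.97), a rise of 1.18 ± 0.15 (adjusted p = 6e-08), and col6a3 rose by 1.22 ± 0.17 (adjusted p = 3.72e-07). Both groups of col6a2 are narrow and apart, so a small difference is resolved. The call of col6a2 was lost with arrays centred on their median, which puts the median difference of all rows at -0.15 instead of -0.03. The matricellular protein of tendon thbs4a rose by 1.64 ± 0.29 (adjusted p = 2.46e-05), as did col5a2b, col5a3b and bgna, while the basement membrane collagen col4a2 fell by 1.44 ± 0.24 (adjusted p = 6.85e-06) and thbs4b also fell.

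In the epidermis list 5 of 36 genes rose (krt1-19d, tp63, pkp1a, anxa1c and cldn1) and 4 fell (elf3, foxi3a, foxi3b and cldni). The keratin krt1-19d, named here after its values were seen, ranged from 6.46 to 13.99 (median 10.60) at 14 dpf and from 12.82 to 14.95 (median 14.05) at 22 dpf. The earlier arrays spread over the whole range and the later ones were uniformly high, giving a rise of 3.59 ± 0.70 (adjusted p = 0.000109). The lowest earlier arrays were 13 and 5, at 6.46 and 6.71, the near-duplicate pair whose epidermis list averaged 10.89 and 10.86 against 11.92 to 12.56 on the other 7; without that pair 2 genes of the list rose and 4 fell. Without single arrays 3 to 8 rose, with 3 without array 5 or 13 and 8 without array 15 at 14 dpf. The ionocyte factor foxi3a, which directs skin cells to become salt-transporting cells, went from 7.62 to 11.35 (median 10.86) to 6.48 to 9.13 (median 7.80) and fell by 2.62 ± 0.43 (adjusted p = 6.52e-06). The tight junction gene cldni fell by 1.70 ± 0.29 (adjusted p = 1.01e-05). A transglutaminase gene outside the list, tgm5l, rose by 3.95 ± 0.77 (adjusted p = 0.000105).

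Muscle genes changed in part. Of 44 fast muscle genes 4 rose (tnni2a.2, ryr3, mybpc2a and tnnc1a) and none fell (1 fell without any 1 of 10 of the 19 arrays), and limma called none of 15 slow muscle genes, of which 6 had an unadjusted p under 0.05 (2 higher, 4 lower). The calcium release channel ryr3 went from 6.5 to 7.17 (median 6.69) to 8.02 to 8.5 (median 8.17), 2 narrow groups apart by 1.44 ± 0.11 (adjusted p = 4.57e-14). The troponin tnni2a.2 rose by 1.54 ± 0.18 (adjusted p = 7.38e-09). Among 22 genes of muscle stem cells and myogenic control 4 rose and 5 fell. Rising were mstnb, the myostatin that limits muscle growth, by 2.23 ± 0.37 (adjusted p = 8.43e-06), mymk, the membrane protein with which myoblasts fuse, by 1.59 ± 0.27 (adjusted p = 9.77e-06), the muscle cadherin cdh15 by 1.56 ± 0.40 (adjusted p = 0.00305), and mef2aa. Falling were the master factors myod1, by 1.40 ± 0.39 (adjusted p = 0.00622), and, named after its value was seen, myog, by 1.22 ± 0.35 (adjusted p = 0.0069), with myf5, pax7b and six4b. All 5 falls lost their call when the near-duplicate arrays 5 and 13 at 14 dpf were left out, and the 4 rises did not. Of 12 heart genes 3 rose, the troponin tnnt2a by 2.36 ± 0.46 (adjusted p = 1e-04), the atrial myosin myh6 by 1.67 ± 0.38 (adjusted p = 0.00071) and the cardiac factor nkx2.5 by 1.33 ± 0.28 (adjusted p = 0.000268), and gata5 fell, a call lost with pairs averaged and without any 1 of 12 of the 19 arrays.

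In oxidative phosphorylation 4 of 63 genes rose (ndufa5, sdha, uqcrc1 and cox6a2) and 2 fell (ndufs8a and cox4i2), with a list median of -0.06. The complex III subunit uqcrc1 lay between 7.58 and 8.40 at 14 dpf and between 10.17 and 10.42 at 22 dpf and rose by 2.26 ± 0.14 (adjusted p = 9.94e-18), against 2.35 ± 0.11 (adjusted p = 6.62e-22) in wild type. The complex II subunit sdha rose by 2.47 ± 0.18 (adjusted p = 1.14e-14), and the muscle subunit of cytochrome oxidase cox6a2 by 1.89 ± 0.15 (adjusted p = 6.2e-14). Of 74 ribosomal protein genes 6 rose and none fell, around a list median of 0.04. Among them rpl4 rose by 2.21 ± 0.10 (adjusted p = 1.35e-21) and rpl15 by 1.28 ± 0.11 (adjusted p = 1.55e-12), and rpl4 did so by 1.94 ± 0.08 in wild type. In these genes, as in all others, an offset between the runs and a change with age cannot be told apart.

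Of 27 measured neuronal genes 9 fell in morphants, none rose and 18 did not pass, and the list median was -0.58. The synaptic fusion protein gene snap25b lay between 10.63 and 12.63 (median 11.95) at 14 dpf and between 9.21 and 10.15 (median 9.63) at 22 dpf. The groups did not overlap, and the fall was 2.18 ± 0.25 (adjusted p = 2.03e-09). The vesicular acetylcholine transporter of motor neurons, slc18a3a, went from 11.31 to 12.18 (median 11.65) to 7.77 to 10.61 (median 9.57), again without overlap, and fell by 2.23 ± 0.40 (adjusted p = 2.39e-05). The synaptic vesicle protein syn2a fell by 2.04 ± 0.28 (adjusted p = 1.43e-07) and stmn2b, a tubulin-binding protein of growing axons, by 2.42 ± 0.33 (adjusted p = 1.34e-07). Further falls were those of elavl4, snap25a, inab and vamp2. The neurofilament genes did not move alike: nefma, at 0.74 ± 0.19, was positive but under the minimum difference.

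Genes outside the list that were among the 20 largest falls of all named genes included some known from nervous tissue, picked after their values were seen. The glycine transporter slc6a5 of inhibitory spinal neurons fell by 3.43 ± 0.54 (adjusted p = 2.71e-06), from 9.09 to 12.33 (median 11.42) to 4.64 to 9.38 (median 8.0). The transmembrane protein sez6 went from 8.52 to 9.93 (median 9.20) to 4.95 to 6.80 (median 6.19) and fell by 3.11 ± 0.29 (adjusted p = 1.12e-11), and nxph1, a neurexin ligand, by 3.0 ± 0.24 (adjusted p = 1.28e-13). Brain sulfotransferase sult4a1 fell by 3.31 ± 0.29 (adjusted p = 1.87e-12), and the axon transport adaptor fez1 fell by 3.07 ± 0.35 (adjusted p = 1.92e-09). In each of sez6, nxph1, sult4a1 and fez1 all 10 later arrays lay below all 9 earlier ones. The transcription factor olig4, of the olig family, fell by 3.43 ± 0.53 (adjusted p = 1.71e-06), with 6 of 10 later arrays below every earlier one.

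Glial and myelin genes went with the neurons, with 7 falls and no rise among 21 (list median -0.66). The astroglial filament gfap lay between 13.20 and 14.39 (median 14.01) at 14 dpf and between 10.58 and 13.18 (median 12.53) at 22 dpf, a fall of 1.62 ± 0.28 (adjusted p = 1.9e-05) with no overlap. The glutamate transporter slc1a2b fell by 1.59 ± 0.37 (adjusted p = 0.000896), the calcium-binding s100b by 1.3 ± 0.26 (adjusted p = 0.000134) and the myelin protein plp1a by 1.3 ± 0.29 (adjusted p = 0.000656), with fabp7a, pmp22a and cldnk. In wild type 14 of the 27 neuronal and 8 of the 21 glial genes fell and none rose, and in none did the age effect differ between the genotypes at an adjusted p below 0.05 (limma, 1 gene of each list at an unadjusted p under 0.05). What share of the trunk's RNA came from the spinal cord at each age was not tested.

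**Figure D3:**
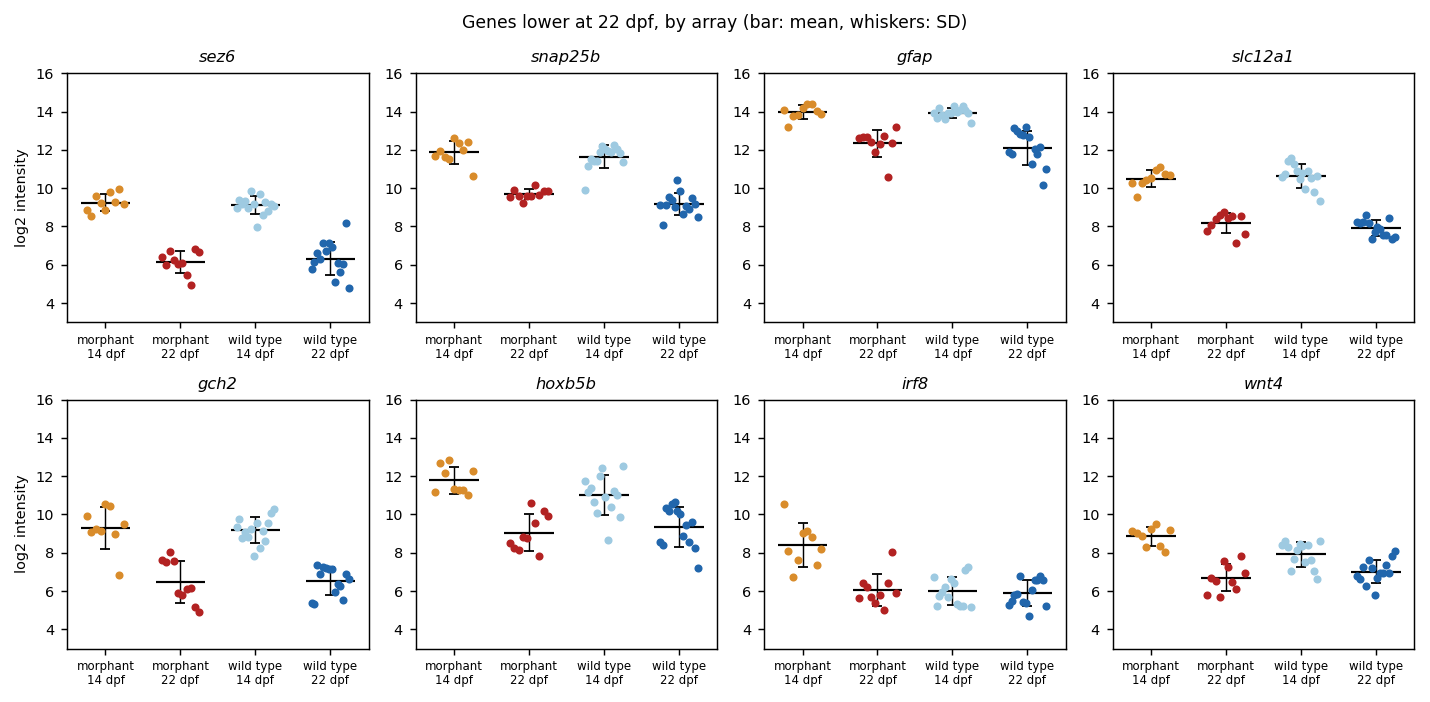
Log2 intensity of 8 genes that fell in morphants, 1 point per array, with the group mean (bar) and SD (whiskers) for morphants and wild type at 14 and 22 dpf. In sez6, snap25b, gfap, slc12a1, hoxb5b and wnt4 the later morphant arrays lie below all earlier ones, and irf8 is low in wild type at both ages.

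Kidney genes fell in 7 of 28 cases and rose in 1 (stc1, a calcium-regulating hormone). The sodium, potassium and chloride cotransporter slc12a1 of the diluting segment lay between 9.55 and 11.11 (median 10.51) at 14 dpf and between 7.13 and 8.75 (median 8.42) at 22 dpf, and fell by 2.31 ± 0.24 (adjusted p = 1.4e-10). The bicarbonate transporter slc4a4a fell by 1.87 ± 0.17 (adjusted p = 5.08e-12), also without overlap. The tubule factor lhx1a fell by 1.25 ± 0.22 (adjusted p = 1.94e-05), and slc12a3, the cotransporter of the distal tubule, by 1.11 ± 0.22 (adjusted p = 0.000152), a call that was lost with near-duplicate pairs averaged. The rest were clcnk, kcnj1a.1 and aqp8a.1. Wild type had 8 falls and no rise.

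Of 24 pigment cell genes 4 fell and none rose. The enzyme gch2, which starts pteridine synthesis in yellow pigment cells, went from 6.84 to 10.55 (median 9.25) to 4.91 to 8.03 (median 6.11), overlapping in part, and fell by 2.82 ± 0.40 (adjusted p = 3.04e-07). The neural crest factor sox10 fell by 1.28 ± 0.30 (adjusted p = 0.000983), foxd3 by 1.18 ± 0.29 (adjusted p = 0.00149) and the melanin enzyme dct also fell. The call of foxd3 was lost when pairs were averaged. Without the arrays 5 and 13 at 14 dpf 2 of the list fell. Both sox10 and foxd3 are also active in the glia of nerves.

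The hox genes, which set position along the body axis, fell in 11 of 49 cases and rose in 1. The median of the list was -0.42. The largest fall was that of hoxb5b, from 11.01 to 12.85 (median 11.33) to 7.82 to 10.60 (median 8.80), with no overlap and a difference of -2.73 ± 0.44 (adjusted p = 3.74e-06). The genes hoxd3a and hoxc6a fell by 1.78 ± 0.24 (adjusted p = 1.17e-07) and 1.54 ± 0.28 (adjusted p = 2.78e-05). The falling genes were spread over the a, b, c and d clusters (hoxa2b, hoxa9a, hoxb4a, hoxb5a, hoxb5b, hoxb6a, hoxb6b, hoxb7a, hoxb8b, hoxc6a and hoxd3a), most of them in the hoxb clusters. The 1 rise, named here after its value was seen, was the posterior gene hoxa11b, by 1.29 ± 0.40 (adjusted p = 0.0141). Wild type had 8 falls and 5 rises, and the difference of the age effects was called in none of the 49 (limma, 2 at an unadjusted p under 0.05).

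Antigen presentation and interferon genes had 5 rises and 1 fall among 31, with a median of -0.01, and 3 rises and 1 fall with pairs averaged. Of these, cd74a, the invariant chain of MHC class II, rose by 1.67 ± 0.39 (adjusted p = 0.00115), the immunoproteasome subunit psmb8a by 1.84 ± 0.36 (adjusted p = 0.000103) and the peptide transporter tap2a by 1.43 ± 0.42 (adjusted p = 0.00861), with psmb9a and mxa, and the interferon signal transducer stat2 fell by 1.80 ± 0.31 (adjusted p = 1.75e-05). Lymphocyte genes had 4 rises and 1 fall among 35. The immunoglobulin heavy chain ighm lay between 4.66 and 5.57 at 14 dpf and between 5.60 and 7.96 at 22 dpf, a rise of 1.14 ± 0.26 (adjusted p = 0.000919) that stayed near the low end of the scale and was no longer called without array 17 at 22 dpf. The NK-lysin gene nkl.4, a killer cell protein, rose by 2.01 ± 0.59 (adjusted p = 0.00941), with il7r and tbx21. The cytokine receptor chain il2rga fell by 1.26 ± 0.28 (adjusted p = 0.000462), and its age effect differed between the genotypes by -1.50 (adjusted p = 0.0312), a call lost with pairs averaged. The count of lymphocyte falls was 2 or 3 without any 1 of the arrays 2, 4, 5, 13 and 16 at 14 dpf and 13, 14, 15 and 17 at 22 dpf. Of 29 myeloid genes 2 rose (cpa5, a mast cell protease, by 2.54 ± 0.78, adjusted p = 0.0129, and alox5a) and 3 fell (mpx, cyba and irf8). The call of cpa5 was lost with pairs averaged, with them as a random block, and without the arrays 5 and 13 at 14 dpf. The neutrophil peroxidase mpx fell by 1.48 ± 0.28 (adjusted p = 6.44e-05) with no overlap.

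The macrophage factor irf8 lay between 6.73 and 10.56 (median 8.21) at 14 dpf and between 5.02 and 8.06 (median 5.84) at 22 dpf in morphants. It fell by 2.34 ± 0.37 (adjusted p = 3.43e-06), while wild-type arrays were low at both ages, with medians of 5.85 and 5.82. The age effect differed between the genotypes by -2.24 ± 0.48 (adjusted p = 0.015), a call lost with near-duplicate pairs averaged and without the arrays 5 and 13 at 14 dpf. Stress and immediate early genes had 5 falls and 1 rise (egr3) among 29. The growth arrest gene gadd45aa fell by 1.74 ± 0.42 (adjusted p = 0.00146) with no overlap, the cytokine inhibitor socs3a by 1.98 ± 0.53 (adjusted p = 0.00404) and the early gene egr1 by 1.26 ± 0.35 (adjusted p = 0.00555), with atf3. The heme-degrading enzyme hmox1a fell by 1.31 ± 0.43 (adjusted p = 0.0219) and its age effect differed between the genotypes by -2.20 (adjusted p = 0.0468). With pairs averaged both calls of hmox1a and the fall of atf3 were lost, leaving 3 falls in the list. Such genes also respond to handling, and whether dissection differed between the ages was not tested. Among 36 clock genes per1b and cry4 rose and cry3a and rorca fell, and limma called none of 18 vessel, 18 thyroid hormone or 8 vitellogenin and estrogen response genes, with 5, 2 and 1 at an unadjusted p under 0.05. Without array 3 at 14 dpf 1 thyroid hormone gene fell.

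Germ cell genes did not rise as a group in morphants. Of 23 germ plasm and piRNA genes 1 rose, the piRNA methyltransferase henmt1, by 1.76 ± 0.48 (adjusted p = 0.00467), and 1 fell, nanos1, by 1.66 ± 0.24 (adjusted p = 8.64e-07). The germ cell gene nanos3 lay just under the minimum difference, at -0.99 (limma, adjusted p = 0.0231). With near-duplicate pairs averaged it was called, at -1.07 (limma, adjusted p = 0.0107), and 2 of the list fell. The list also had 2 falls without some single arrays. In wild type 18 of the 23 rose and 1 fell. The difference of the age effects was called in 3 of the 23 (limma, 13 at an unadjusted p under 0.05, all lower in morphants). The gene targeted by the morpholino, dnd1, lay between 4.76 and 7.37 (median 5.98) at 14 dpf and between 4.49 and 8.06 (median 5.19) at 22 dpf. These levels do not check the knockdown, because a morpholino acts on translation. The helicase gene ddx4 (vasa), the usual germ cell marker, ranged from 6.25 to 10.87 (median 7.36) at 14 dpf and from 5.4 to 10.89 (median 6.55) at 22 dpf, and differed by -0.23 ± 0.61 (adjusted p = 0.838). The highest arrays were 3 at 14 dpf (10.87) and the near-duplicates 1 and 2 at 22 dpf (10.81 and 10.89). On these 2 later arrays the germ plasm list averaged 7.97 and 8.05, against 6.01 to 6.73 on the other 8. In wild type ddx4 had medians of 10.34 and 11.57. The other germ cell markers were not called in morphants, with piwil1 at 0.17 ± 0.39, dazl at 0.87 ± 0.33 (adjusted p = 0.0473, under the minimum difference) and smc1b at 1.06 ± 0.61 (adjusted p = 0.226).

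Meiosis genes had 3 rises and no fall among 24 in morphants. The synaptonemal complex protein gene sycp2 lay between 5.71 and 6.82 (median 6.18) at 14 dpf and between 7.30 and 9.25 (median 8.12) at 22 dpf, without overlap, and rose by 2.11 ± 0.29 (adjusted p = 1.79e-07). Its rise was on all later arrays, not on the arrays 1 and 2 alone. The partner protein gene sycp1 rose by 1.44 ± 0.33 (adjusted p = 0.000852), from 5.69 to 6.85 (median 6.18) to 6.98 to 9.39 (median 7.40), and tex11 by 1.19 ± 0.35 (adjusted p = 0.00892). The call of tex11 was lost without the arrays 1 and 2 at 22 dpf. The lateral element gene sycp3 stayed at medians of 5.85 and 5.82 and differed by 0.43 ± 0.50 (adjusted p = 0.601), with 8.56 and 8.71 on the arrays 1 and 2. In wild type 11 of the 24 genes rose, among them sycp1 by 3.06 ± 0.27 (adjusted p = 1.26e-12) and sycp3 by 2.12 ± 0.42 (adjusted p = 5.74e-05). The difference of the age effects was called in none of the 24 (limma, 6 at an unadjusted p under 0.05, all lower in morphants).

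Oocyte genes set the age effects of the genotypes apart, with a wide spread in wild type. Of 21 genes of the oocyte and egg coat none rose in morphants (limma, 0 also at an unadjusted p under 0.05) and 2 fell, mos by 1.40 ± 0.48 (adjusted p = 0.0266) and pou5f3 by 1.28 ± 0.45 (adjusted p = 0.0315), and the list median was 0.05. Only 1 of them fell without any 1 of 8 of the 19 arrays, the arrays 1, 4, 5, 13, 14 and 16 at 14 dpf and 4 and 18 at 22 dpf. In wild type 16 rose and none fell, with a median of 3.16. The fit took 1 spread per row from all 4 groups, so a wide spread in wild type also enlarges the SE in morphants. For zp3, with an SE of 0.74 in morphants, the SD was 0.60 and 1.34 in morphants at 14 and 22 dpf. In wild type at 22 dpf it was 2.61. A small rise of oocyte genes in morphants could therefore be missed. The egg coat gene zp3 lay between 4.88 and 6.83 (median 5.99) at 14 dpf and between 4.84 and 8.82 (median 6.03) at 22 dpf in morphants, where only the arrays 1 and 2, at 8.44 and 8.82, exceeded the earlier range. In wild type it went from a median of 5.62 to one of 11.56, and the age effects differed by -4.56 ± 0.95 (adjusted p = 0.0128). The wild-type arrays at 22 dpf ran from 5.91 to 14.08, so the lowest lay within the morphant range and the rise was not on all of them. The oocyte factor figla, which switches on egg coat genes, differed by -0.32 ± 0.61 (adjusted p = 0.767) in morphants and by 3.48 ± 0.50 (adjusted p = 2.39e-07) in wild type, an age effect apart by -3.80 ± 0.79 (adjusted p = 0.0124). Its wild-type values at 22 dpf ran from 5.13 to 11.35. The growth factor gdf9 differed by -0.22 ± 0.40 in morphants and by 0.93 ± 0.33 in wild type and was called in neither. The other members of the oocyte list whose age effect differed were zp2.2, zp3b, zpax1 and lhx8a, and in the germ plasm list nanos3, gra and zar1. Egg coat genes outside the lists differed too. Among them the calls of zpd, zpcx and zpax4 held with pairs averaged, and those of zpax2, zp3.1, zp3.2 and zp3f.1 were lost. With near-duplicate pairs averaged the calls of zp3, zpax1, lhx8a, nanos3 and zar1 held, and those of figla, zp2.2, zp3b and gra were lost.

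**Figure D4:**
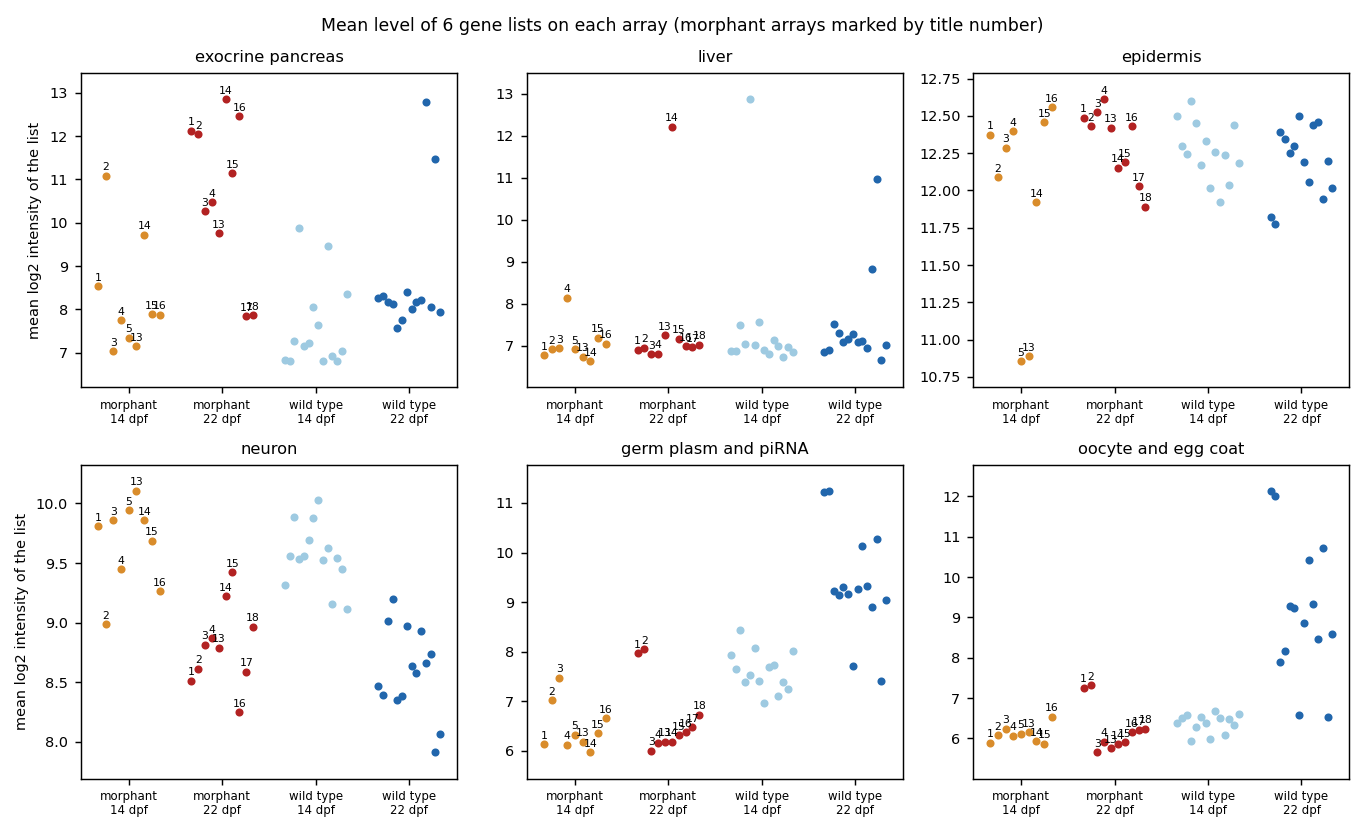
Mean log2 intensity over the members of 6 gene lists on each array, with morphant arrays marked by their title number. At 22 dpf the morphant arrays 17 and 18 are low for the exocrine pancreas, array 14 is high for the liver, and the arrays 1 and 2 are the highest of the morphants for both germ cell lists but lie below most wild-type arrays of that age.

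Genes of the lists for the somatic gonad moved singly, and values of whole trunks do not show in which tissue a gene changed. Of 18 genes of the testicular soma 1 rose, the androgen receptor ar, from 10.05 to 11.33 (median 10.72) to 11.21 to 12.47 (median 11.78), by 1.12 ± 0.20 (adjusted p = 2e-05). With near-duplicate pairs averaged ar was no longer called. The Sertoli cell genes amh, gsdf and sox9a and the testis factor dmrt1 did not pass, with 0.32 ± 0.33, 0.26 ± 0.38, 0.29 ± 0.30 and -0.57 ± 0.17, and all 4 had medians below 6 on the log2 scale at both ages. The difference of dmrt1 was negative and large beside its SE, but under the minimum difference. Of 16 genes of the ovarian soma 1 rose, the estrogen receptor esr2b, by 1.18 ± 0.22 (adjusted p = 3.66e-05), and 3 fell, fsta, fstb and wnt4. The signalling gene wnt4, which is needed for the female pathway in mammals, lay between 8.04 and 9.52 (median 9.02) at 14 dpf and between 5.71 and 7.83 (median 6.60) at 22 dpf, without overlap, and fell by 2.16 ± 0.29 (adjusted p = 7.38e-08). The activin-binding follistatins fsta and fstb, which muscle also makes, fell by 1.1 ± 0.30 (adjusted p = 0.00454) and 1.27 ± 0.27 (adjusted p = 0.000401). The call of fsta was lost in the deposited values without joint normalization, and without the arrays 5 and 13 at 14 dpf.

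The aromatase gene cyp19a1a, which turns androgens into estrogens, ranged from 4.53 to 8.64 (median 5.08) at 14 dpf and from 4.02 to 6.99 (median 4.69) at 22 dpf in morphants, a difference of -0.48 ± 0.45 (adjusted p = 0.491). In wild type it rose by 1.91 ± 0.37 (adjusted p = 4.86e-05), and the age effects differed by -2.39 ± 0.58 (adjusted p = 0.034). This call was lost when any 1 of 10 of the 47 arrays was left out, and with pairs averaged. The granulosa factor foxl2a differed by 0.57 ± 0.44 in morphants and rose by 2.08 ± 0.36 in wild type, and the difference of these age effects did not pass (-1.51 ± 0.57, adjusted p = 0.26); its relative foxl2b differed at an adjusted p of 0.0463, a call lost with pairs averaged. Of 21 steroid synthesis genes 2 rose (cyp17a1 and hsd17b3) and 1 fell, and with pairs averaged neither rise was called. The cholesterol importer star ranged from 4.89 to 12.01 (median 9.44) at 14 dpf and from 5.51 to 7.74 (median 6.59) at 22 dpf. Its earlier arrays spread widely and the later ones lay inside that range, and it fell by 2.57 ± 0.60 (adjusted p = 0.000968). The androgen-forming enzyme hsd17b3 rose by 1.22 ± 0.41 (adjusted p = 0.0249), a call lost with pairs averaged and without array 2 or 3 at 14 dpf or 18 at 22 dpf.

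Of 39 cell cycle genes 2 rose (mcm5 and dut) and 3 fell (ccna2, cenpf and nusap1) in morphants, against 12 rises and 2 falls in wild type. The age effect differed between the genotypes in 5 of them, named here after their values were seen. In 4 mitotic genes, aurka, ube2c, cdca8 and birc5a, the age effect was lower in morphants. Their means were higher in morphants than in wild type at 14 dpf and lower at 22 dpf. From 14 to 22 dpf aurka went from 9.28 to 8.52 in morphants and from 7.77 to 9.50 in wild type. For ube2c these means were 13.35 and 13.07 against 12.41 and 13.53. For cdca8 they were 12.45 and 12.22 against 11.52 and 12.82, and for birc5a 11.68 and 11.11 against 10.92 and 11.70. The kinase aurka differed by -2.49 ± 0.56 (adjusted p = 0.0203) and ube2c, a ubiquitin-conjugating enzyme of mitotic exit, by -1.40 ± 0.31 (adjusted p = 0.02). Both of the chromosomal passenger complex, cdca8 and birc5a differed by -1.54 ± 0.34 (adjusted p = 0.0169) and -1.35 ± 0.31 (adjusted p = 0.0258). For the replication helicase mcm6 the age effect was higher in morphants, by 1.58 ± 0.40 (adjusted p = 0.0463). Its mean went from 12.17 to 12.63 in morphants and from 13.05 to 11.93 in wild type. This call was lost when any 1 of 32 of the 47 arrays was left out. With near-duplicate pairs averaged none of the 5 was called, at adjusted p above 0.05. In wild type the oocyte genes rose on the same arrays, and their part in these cell cycle differences was not tested.

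Across all rows the age differences of the genotypes ran largely together. The correlation over 31475 rows was 0.686 (Pearson), as a description, since both comparisons carry the same difference of normalization runs, and genes are not independent. Of the 4021 morphant calls 2428 were also called in wild type in the same direction, which is 60.4% of the morphant and 50.1% of the 4848 wild-type calls, and 1 was called in the opposite direction. The test of the difference of the age effects, in which an offset between the runs that acts alike on both genotypes cancels, called 186 rows (0.591%), 163 with the morphant effect lower (0.518%) and 23 with it higher (0.0731%). Of the 163 rows 146 rose in wild type, and 148 were called in neither direction in morphants. Their median difference was 0.16 in morphants and 4.08 in wild type. With pairs averaged 67 rows were called, 60 of the 163 and 6 of the 23 among them.

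The row of cldnd, a claudin gene, had medians of 6.01 and 5.28 in morphants and of 5.34 and 12.73 in wild type, apart by -6.26 ± 1.3 (adjusted p = 0.0124). Its wild-type values at 22 dpf ran from 4.69 to 15.36, so the lowest lay within the morphant range. The egg coat genes zpax4 and zpax1 were apart by -5.81 ± 1.15 (adjusted p = 0.00987) and -4.75 ± 0.98 (adjusted p = 0.0122). The later morphant arrays above the earlier range were 1 and 2 for cldnd and zpax1, and 2 and 18 for zpax4. On the other side stood ugt5a4, a sugar-conjugating enzyme, which rose by 1.76 ± 0.46 (adjusted p = 0.00339) in morphants and differed by -0.80 ± 0.38 in wild type (age effects apart by 2.56 ± 0.60, adjusted p = 0.0278, not called without array 13 at 14 dpf or with pairs averaged). The myosin chaperone unc45b differed by -0.89 ± 0.31 in morphants and fell by 2.72 ± 0.25 (adjusted p = 4.75e-12) in wild type, apart by 1.83 ± 0.40 (adjusted p = 0.0164).

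**Figure D5:**
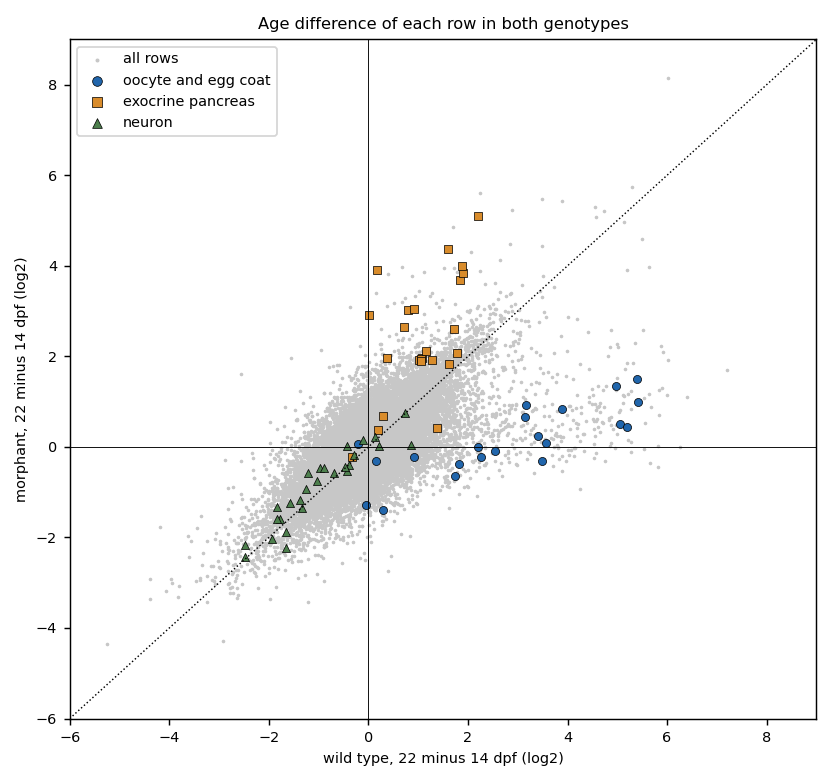
Difference between 22 and 14 dpf of each of 31475 rows in wild type (x axis, log2) and in morphants (y axis, log2), with the line of equal differences dotted. Neuronal genes lie along the line, genes of the exocrine pancreas lie mostly above it, and oocyte and egg coat genes extend to the right near a morphant difference of 0.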

How the data were processed

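The authors' deposited table holds log2 values of 47 1-colour arrays, which the submitters' processing notes credit to RMA, of a version not given in the sources used here. Per the labels' protocols, total RNA was amplified before hybridization and labelled with Cy3. Arrays have no read depth, so their number limits the precision, and no detection calls were at hand. Medians of the deposited arrays lay between 7.265 and 7.568 at 14 dpf and between 7.58 and 7.701 at 22 dpf, so the ages did not overlap. For the 14 dpf morphants the labels count 10 replicates, and 9 were analysed here.

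The labels gave the groups. All arrays were quantile-normalized together and fitted with limma 3.58.1 in R 4.3.3 as 4 group means (43 residual degrees of freedom), with eBayes and Benjamini-Hochberg adjustment over 31475 rows and no filter on low values. Contrasts were 22 minus 14 dpf in morphants, the same in wild type, and the difference of these age effects. Fits were tested on simulated data. Arrays were called near-duplicates at a correlation above 0.65 of their deviations from the mean of the other arrays of their group, using rows averaging 8 or more; 6 of 263 pairs passed (0.765 to 0.92, the next at 0.534), and averaging them leaves 41 samples. Title numbers did not pair the ages, which hold different fish: over 8 shared numbers the correlation ran from -0.0506 to 0.189. Alternatives were other scalings, near-duplicates averaged or blocked, number groups, a filter, other minimum differences and arrays left out; leaving out the arrays 5 and 13 or 1 and 2 together, and lists without single arrays, was added after seeing the data.

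Row names, often old, were looked up in reference gene tables of the zebrafish: 22016 rows matched 1 named gene, 558 a gene with only a number, 86 several and 8815 none. A gene with several rows, of which there were 983, is given by the row with the highest mean. The 41 lists hold 1099 measured members. Members and lists were chosen with earlier results of these data known, and the comparison itself was chosen so. Genes are named from the 20 largest rises and falls, the 5 members of a list that had the lowest p, the 15 largest differences of the age effects in each direction, 16 germ cell and gonad genes, and up to 10 called genes in each direction whose groups do not overlap. From these, those that belong to a described group were picked. Where few members of a list were called, all are named, and some called members are not reported here.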

Additional observations from a re-analysis of the deposited data

Results flagged for a closer look

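Single morphant arrays stood far from the rest of their group in 28 of 256 gene and group tests, where chance flags about 1 in 20; values are log2 intensities with the nearest other array in brackets. At 14 dpf array 2 was high in the pancreatic genes cela1.3 at 11.55 (6.81) and cel.2 at 9.79 (7.02) and in cyp19a1a at 8.64 (5.67), and low in pyya at 8.93 (10.47). Array 3 of that age was high in the germ cell genes ddx4 at 10.87 (8.02), piwil1 at 8.07 (6.54) and dazl at 6.36 (5.47) and in the granulosa factor foxl2a at 8.02 (6.12), and low in olig4 at 5.06 (7.98). Array 15 was high in hbaa2 at 6.20 (5.17) and low in rhag at 8.5 (10.16) and gch2 at 6.84 (8.97). Array 13 was low in foxi3a at 7.62 (9.60), and array 4 in socs3a at 7.45 (10.13).

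At 22 dpf array 17 was low in rhag at 7.79 (9.15) and high in the immune genes irf8 at 8.06 (6.44) and ighm at 7.96 (6.82) and in sox9a at 7.61 (5.47). Array 16 was low in gfap at 10.58 (11.91), slc1a2b at 10.70 (11.88) and mgp at 11.40 (12.88). Array 15 was high in syn2a at 9.52 (8.38) and low in tgm5l at 6.74 (9.81), and array 14 was high in olig4 at 8.07 (5.86) and amh at 7.31 (6.14). Array 18 was high in nxph1 at 7.55 (6.39) and low in mcm6 at 11.85 (12.44), and array 3 was high in lhx1a at 6.20 (5.50).

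Among the 128 genes followed through the alternatives, the age effect differed between morphants and wild type, by the limma test of the difference, in 14. It was lower in morphants for cldnd by -6.26, zpax4 by -5.81, zpax1 by -4.75, zp3 by -4.56, figla by -3.80, aurka by -2.49, cyp19a1a by -2.39, irf8 by -2.24, cdca8 by -1.54, ube2c by -1.40 and birc5a by -1.35. It was higher for ugt5a4 by 2.56, unc45b by 1.83 and mcm6 by 1.58. With near-duplicate pairs averaged the calls of cldnd, zpax4, zpax1, zp3 and unc45b held, and those of the rest were lost. Other genes named above differed as well, such as angptl4, il2rga, hmox1a, foxl2b and further oocyte and germ plasm genes.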

How the results depend on the processing

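The count of morphant calls stayed within 1.5 times of 4021 under every alternative run except the minimum difference, which gave 7373 with none and 675 at 2 units (wild type 10792 and 908). Leaving out 1 array moved it between 3856 and 4114, the wild-type count of 4848 between 4643 and 4992, and the 186 differing age effects between 117 (without wild-type array 19 at 22 dpf) and 304 (without array 11). Those 186 became 67 with near-duplicate pairs averaged, 112 with them as a random block, 111 without the morphant arrays 5 and 13 at 14 dpf, 25 within title numbers 13 and above, and 0 within 1 to 12 (limma, 3325 rows at an unadjusted p under 0.05). With the title number as a replicate block they became 0 (2704 unadjusted) and the morphant calls 3836; the numbers do not pair the fish. Of the 102 named genes called, 45 differed by at least 2 units. Called genes kept their sign in every alternative, while uncalled ones near 0 did not. The following reversed: cldnd and zpax4 with arrays centred (-0.0539, -0.0225), with pairs averaged (-0.49, -0.15), as a random block (-0.40, -0.12), and without the arrays 5 and 13 (-0.12, -0.10, with figla at 0.0535). Within 1 to 12 foxl2a (-0.13), sox9a (-0.14), dnd1 (0.76), ddx4 (0.86) and figla (0.46) did, and within 13 and above gsdf (-0.19), cyp19a1a (0.0357), cldnd (-0.64), zpax4 (-0.15) and ube2c (0.0517). Without the arrays 1 and 2 at 22 dpf gsdf (-0.0450), piwil1 (-0.22), sycp3 (-0.16), zp3 (-0.0804), zpax1 (-0.0609), cldnd (-1.08) and zpax4 (-0.47) did. Without single arrays cldnd ran from -0.49 to 0.23, zpax4 from -0.28 to 0.26, piwil1 from -0.0169 to 0.42 and ddx4 from -0.63 to 0.19. The cause was not tested. The fit of only the groups compared could not give the difference of the age effects.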
